A study of Homo sapiens with 96 samples.

Results

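GBP1, GBP2, GBP3, GBP4 and GBP5 encode guanylate-binding proteins, a family of large GTPases. They were followed through 6 human acute myeloid leukaemia (AML) cell lines given a retinoid, an inhibitor of lysine-specific demethylase 1 (LSD1), both, or vehicle. The members were the rows of the deposited count table, keyed by Ensembl identifier, whose GENCODE 29 symbol was one of these 5 names, which gave 5 of 60552 gene rows. They were picked from a readout: GBP1 was 150.5-fold higher with Combo than with DMSO at day 4 over the 6 lines. Every comparison with Combo at day 4 is therefore given as values with no test. The tests below use day 2, and 552A or ATRA alone at day 4, and those day 4 comparisons share their DMSO libraries with the comparison that picked the genes.

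Cells received Combo (1 µM GSK2879552 with 100 nM all-trans retinoic acid), ATRA (100 nM all-trans retinoic acid), 552A (read as 1 µM GSK2879552) or DMSO (0.1%, the vehicle) for 2 or 4 days. GSK2879552 inhibits LSD1, an enzyme that removes methyl groups from histone H3, and all-trans retinoic acid activates the receptors RARA, RARB and RARG. The lines were HL60, Kasumi1, MOLM13, MV411, OCIAML3 and THP1, each a single established line. As background, a RUNX1 fusion is known in Kasumi1, KMT2A fusions in THP1, MV411 and MOLM13, and an NPM1 mutation in OCIAML3. There were 96 libraries, 2 for each of 48 groups that share line, treatment and day, with total counts of 12.82 to 40.95 megareads (M reads). Whether the 2 replicates came from separate cultures is not said in the labels; a p-value within a line then reflects only how far these libraries lie apart, possibly for technical reasons. In such bulk RNA, fewer cells expressing a gene and less RNA per cell cannot be told apart. The myeloid markers PTPRC, CD33 and SPI1 were above 0 in every library, with lowest values of 109, 22.5 and 8.78 counts per M reads (CPM). Some genes of other cell types were high in a single line, among them EPCAM with a mean of 114 CPM in Kasumi1, while the B-cell marker MS4A1 stayed at or below 0.0727 CPM.

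Guanylate-binding proteins are best known as targets of interferons, above all of interferon gamma, which reaches their promoters through transcription factors such as IRF1. In infected cells GBP1 coats bacteria that reach the cytosol and recruits GBP2, GBP3 and GBP4, and this coat activates the inflammatory caspase CASP4. GBP1, GBP2 and GBP5 carry a lipid (prenyl) anchor that holds them to membranes, and GBP2 and GBP5 also hinder the maturation of viral envelope proteins. In the myeloid lineage the family is expressed mainly in monocytes and macrophages.

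The interferon-stimulated response element (ISRE) is a promoter motif bound by transcription factors of the IRF family, and the stretches that hold it are shown because they are the known entry point of interferon signals to these genes. The 300-base promoter windows of RefSeq (build GRCh38.p14, 250 bases before to 50 after the annotated start) held GBP1, GBP3 and GBP4, so 3 of the 5 members matched. The ISRE core, GAAA followed by 2 further bases and GAAA again, was searched on both strands, and each of the 3 windows held it once, on the strand opposite to the gene. Among all 35116 windows 3.57% held it. The sites read as follows, 5′ to 3′ along the gene, with the motif in capitals.
GBP1: aacgaagtacTTTCAGTTTCatattactct
GBP3: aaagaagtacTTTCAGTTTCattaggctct
GBP4: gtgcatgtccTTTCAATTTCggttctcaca
The GBP1 stretch is chr1:89065316-89065345, the GBP3 stretch chr1:89022845-89022874 and the GBP4 stretch chr1:89198927-89198956, all on the minus strand. Counted from 1 at the annotated start, with no position 0, the motif spans bases -127 to -118 in GBP1, 3 to 12 in GBP3 and -4 to 6 in GBP4. GENCODE starts GBP1 further upstream than RefSeq does, so the GBP1 site lies inside the GENCODE gene. GBP1 and GBP3 share 25 of the 30 bases, whereas GBP4 shares 16 with either. The gamma-activated sequence motif TTCNNNGAA (GAS) was found once, in GBP3 from base -15, against 7.66% of all windows, and did not overlap the ISRE core. Neither the retinoid element, the half-site AGGTCA repeated in the same direction with 5 bases between (in 0.0057% of all windows) nor a single half-site (in 13.8%) was found in these 3 windows on either strand. Only exact matches to these patterns were sought, so the search does not show that an element of another form is absent.

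All 5 members lie on chromosome 1 on the minus strand (GRCh38): GBP3 at 89006666-89022894, GBP1 at 89052319-89065360, GBP2 at 89106132-89150456, GBP4 at 89181148-89198932 and GBP5 at 89258950-89272804. Some reads cannot be placed, in part because the genes are related. The share of 50-base stretches also found in another gene's transcripts was 9.62% for GBP1 (mostly GBP1P1, GBP3 and GBP2), 10.2% for GBP2 (GBP7, whose locus overlaps), 4.76% for GBP3, 4.03% for GBP4 and 0.396% for GBP5. For GBP4 (CASP10, EDEM3 and ATP9B) and GBP5 (NPC1, LINC02506 and AC106744.1) the genes that shared most lay outside the family. The levels of GBP1 and GBP2 are the most open to reads that cannot be placed.

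In vehicle the family was low, and its make-up differed by line. GBP1 was near silent: the 12 DMSO libraries of day 2 held 26 GBP1 reads in all, 5 of them held none, and the highest had 0.304 CPM, in THP1. GBP3 had line means of 2.01 CPM in HL60 to 16.7 CPM in THP1; from low to high the order was HL60, MV411, MOLM13, OCIAML3, Kasumi1 and THP1, and of these neighbours only the MOLM13 and OCIAML3 libraries overlapped. GBP2 ran from 0.473 CPM in Kasumi1 to 8.74 CPM in MOLM13, in the order Kasumi1, OCIAML3, HL60, THP1, MV411 and MOLM13, where the libraries of the first 3 lines overlapped each other, as did those of the last 3, and the 2 sets stood apart. GBP4 was absent in HL60 (0 reads at day 2) and highest in OCIAML3 with 26.8 CPM; MOLM13, Kasumi1, MV411 and THP1 lay between in that order, and only MV411 and THP1 overlapped. GBP5 was at 11.7 CPM in THP1 and at 0 reads in Kasumi1, and the median of the 6 line means was 0.378 CPM; HL60, OCIAML3, MV411 and MOLM13 lay between in that order, and HL60 and OCIAML3 overlapped. The levels of GBP2, GBP3, GBP4 and GBP5 in day 2 DMSO differed between lines (edgeR quasi-likelihood F test, adjusted p = 1.77e-05, 1.37e-05, 2.08e-08 and 8.81e-08), as did 82.6% of the genes tested. GBP1 did not pass the filter on low counts there. At day 4 the order of the lines was the same for GBP2 and GBP4, and HL60 GBP2 was higher, at 8.65 and 6.60 CPM at day 4 and 0.319 and 1.18 CPM at day 2.

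**Figure D1:**
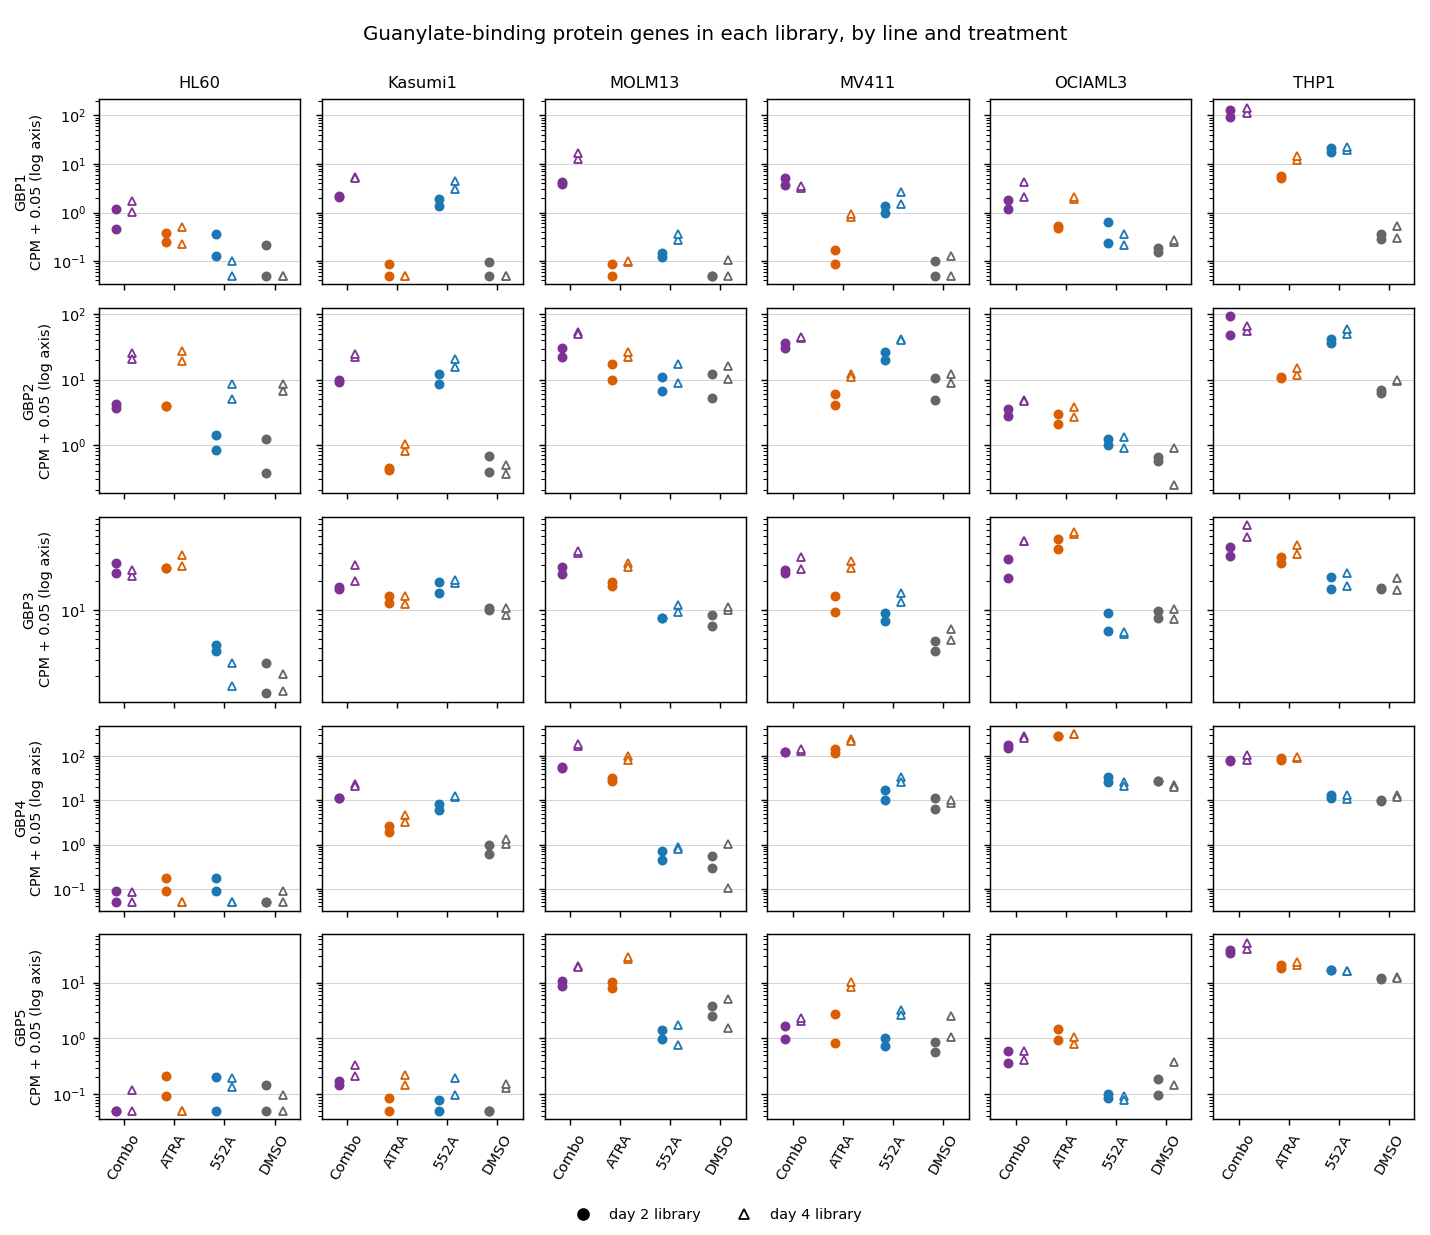
Level of each member (rows) in each library, in CPM with 0.05 added, on a log axis that is shared along a row; columns are lines, colours treatments, filled circles day 2 and open triangles day 4 libraries. GBP1 reaches 93.2 to 144 CPM with Combo in THP1, and GBP4 and GBP5 stay near the floor in HL60.

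The 2 single agents were called on different members; the difference between the agents was not tested. Across the 6 lines at day 2, 552A raised GBP1, the member that initiates the coat, 17.6-fold (log2 fold change 4.14 ± 0.95 SE, edgeR quasi-likelihood test, adjusted p = 0.0295). It was the 1 member of 5 called with 552A at day 2, where 1.57% of all genes tested were called higher. ATRA called the other end of the family: GBP4 (log2 3.64 ± 0.70, adjusted p = 0.00823), GBP3 (1.76 ± 0.38, adjusted p = 0.0136) and GBP5 (1.79 ± 0.51, adjusted p = 0.0367) rose at day 2. That is 3 of 5 members, against 4.97% of all genes called higher with ATRA (1199 higher and 1062 lower; 919 and 485 after correction for GC content and length). GBP1 (2.32 ± 1.01, adjusted p = 0.138) and GBP2 (1.16 ± 0.56, adjusted p = 0.179) were not called with ATRA at day 2, and GBP2 with 552A was not called either (1.84 ± 0.57, adjusted p = 0.0907; 0.0138 by the DESeq2 Wald test). With 552A, GBP3 (0.43), GBP4 (1.18) and GBP5 (0.08) had adjusted p of 0.346 or more.

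Several of these calls across lines rest on the full set of 6. The 552A call of GBP1 ended when Kasumi1, MOLM13, MV411 or THP1 was left out (log2 3.24 to 4.18, adjusted p up to 0.170, the highest without THP1) and without OCIAML3 552A replicate 2 and THP1 552A replicate 2, the 2 day 2 libraries with the steepest trends of counts with GC content (4.01, adjusted p = 0.0633). The ATRA call of GBP3 ended without OCIAML3 (1.56, adjusted p = 0.0763) or THP1 (1.93, adjusted p = 0.0548). That of GBP5 ended without any line but Kasumi1 (adjusted p up to 0.155) and after correction for GC content and length (1.61, adjusted p = 0.0684). The ATRA call of GBP4 at day 2 was kept without each line.

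At day 4 the ATRA calls were GBP4 (4.01 ± 0.84, adjusted p = 0.0112), GBP3 (2.21 ± 0.43, adjusted p = 0.00744) and GBP1 (3.95 ± 1.16, adjusted p = 0.0459), against 4.17% of genes called higher. The ATRA and 552A tests at day 4 share their DMSO libraries and their fit with the Combo comparison that picked the genes. For GBP1 they are therefore not independent of that choice. GBP5 was not called (1.96 ± 0.60, adjusted p = 0.0522; 0.0225 by the DESeq2 Wald test), nor was GBP2 (1.24, adjusted p = 0.209). With 552A at day 4, where 0.38% of genes were called higher, edgeR called 0 of 5 members: GBP1 and GBP2 had unadjusted p under 0.05, and GBP1 stood at 4.72 ± 1.20 (adjusted p = 0.108; 5.08 and a call, adjusted p = 0.00186, by the DESeq2 Wald test). The day 4 ATRA call of GBP1 ended without any single line but Kasumi1 (3.43 to 4.63, adjusted p up to 0.175) and after correction for GC content and length (3.90, adjusted p = 0.0550), and that of GBP4 without OCIAML3 (4.06, adjusted p = 0.0548).

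With Combo all 5 members rose at day 2, against 15.2% of all genes called higher. GBP1 was 82.1-fold higher (6.36 ± 0.93, adjusted p = 0.000278), GBP4 14.7-fold (3.88 ± 0.71, adjusted p = 0.00125), GBP2 6.10-fold (2.61 ± 0.57, adjusted p = 0.00354), GBP3 3.77-fold (1.91 ± 0.38, adjusted p = 0.0019) and GBP5 2.87-fold (1.52 ± 0.50, adjusted p = 0.0311). The call of GBP5 ended without Kasumi1, MOLM13, MV411 or THP1 (adjusted p up to 0.0893) and after correction for GC content and length (1.36, adjusted p = 0.0513). Against ATRA alone, Combo called only GBP1 among the members (4.04 ± 0.76, adjusted p = 0.0131; 0.837% of genes were higher). That call ended without MOLM13, MV411 or THP1 (3.53 to 3.92, adjusted p up to 0.0826). Against 552A alone, Combo called GBP3 (1.48 ± 0.37, adjusted p = 0.0358) and GBP4 (2.70 ± 0.71, adjusted p = 0.0443), where 2.24% of genes were higher, and both calls ended without any line but Kasumi1 (adjusted p up to 0.120 for GBP3 and 0.175 for GBP4). The DESeq2 Wald test also called GBP1 there (2.43, adjusted p = 0.0423). The day 4 values of Combo against DMSO were log2 7.23 for GBP1, 2.65 for GBP2, 2.29 for GBP3, 4.35 for GBP4 and 1.56 for GBP5.

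**Figure D2:**
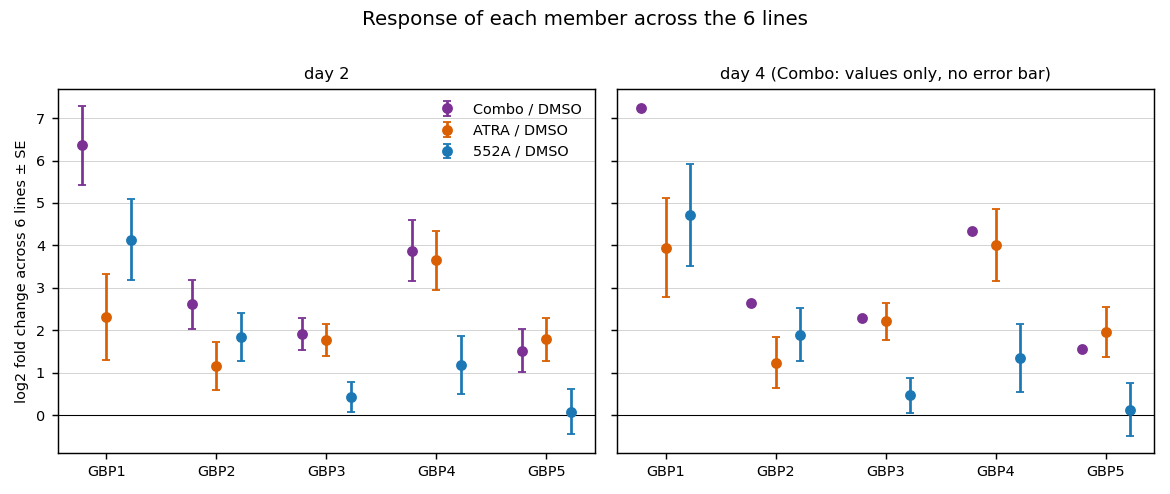
Log2 fold change of each member against DMSO over the 6 lines, with bars of 1 SE, for Combo, ATRA and 552A at day 2 (left) and day 4 (right; Combo has no bar because it picked the genes). GBP1 and GBP2 sit higher with 552A than with ATRA at day 2, while GBP3, GBP4 and GBP5 sit higher with ATRA.

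For Combo beyond the sum of the single responses on the log2 scale at day 2, edgeR called 0 of 5 members over the lines, as for 0% of genes (DESeq2 called 0 as well, and 1275 genes passed 0.05 in edgeR before adjustment). The GBP1 value was -0.09 ± 0.83, so its direction is not resolved: it was 0.67 without THP1 and 0.26 without Kasumi1. Nor did edgeR call a member between days 4 and 2 in DMSO, 552A or ATRA, or for a change of the 552A or ATRA effect between days; over all genes it called 0% in each of these 5 comparisons, where 179 to 1112 genes passed 0.05 before adjustment and DESeq2 called 0 or 1 gene.

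Behind the fit over lines stood large differences between lines. For 552A at day 2 the responses of GBP1 (adjusted p = 0.0184), GBP2 (adjusted p = 0.000794) and GBP4 (adjusted p = 0.000484) differed between lines in an edgeR F test over the line-by-treatment terms, which called 1.3% of all genes. For ATRA at day 2 those of GBP2 (0.00364), GBP3 (2.12e-06) and GBP4 (4.34e-06) differed by adjusted p, against 14.1% of genes, and for Combo at day 2 those of GBP1 (0.000401), GBP2 (0.0168), GBP3 (9.76e-06) and GBP4 (2.75e-07), against 23.6%. At day 4 GBP1 to GBP4 differed for 552A (5.69% of genes) and GBP2 to GBP5 for ATRA (31.4% of genes). The GBP1 call for 552A at day 2 ended without 1 of 4 DMSO libraries (HL60 replicate 1, OCIAML3 replicate 2 or either THP1 replicate; adjusted p up to 0.161, without the OCIAML3 one), and the GBP2 call for Combo ended without Kasumi1 DMSO replicate 2 (adjusted p = 0.0826). Within lines, 27 of the 30 pairs of line and member passed the filter on low counts: GBP4 did not in HL60 and GBP5 did not in HL60 and Kasumi1. In 7 of the 27, GBP1 in each line and GBP5 in OCIAML3, every DMSO library held under 10 reads, so these pairs passed through their treated libraries. In MOLM13 GBP1 passed through Combo alone, since 552A, ATRA and DMSO held at most 8 reads there per library. In HL60 the GBP1 group sums were 37 reads at day 2 and 73 at day 4 with Combo, and at most 14 with any other treatment, so that pair rested on Combo as well. The Combo calls of GBP1 in MOLM13 and HL60 therefore give no support of their own. In Kasumi1 the ATRA and DMSO groups held 0 or 1 GBP1 reads at each day, so that pair passed through 552A and Combo. Its calls with 552A and Combo there give no support of their own either.

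**Figure D3:**
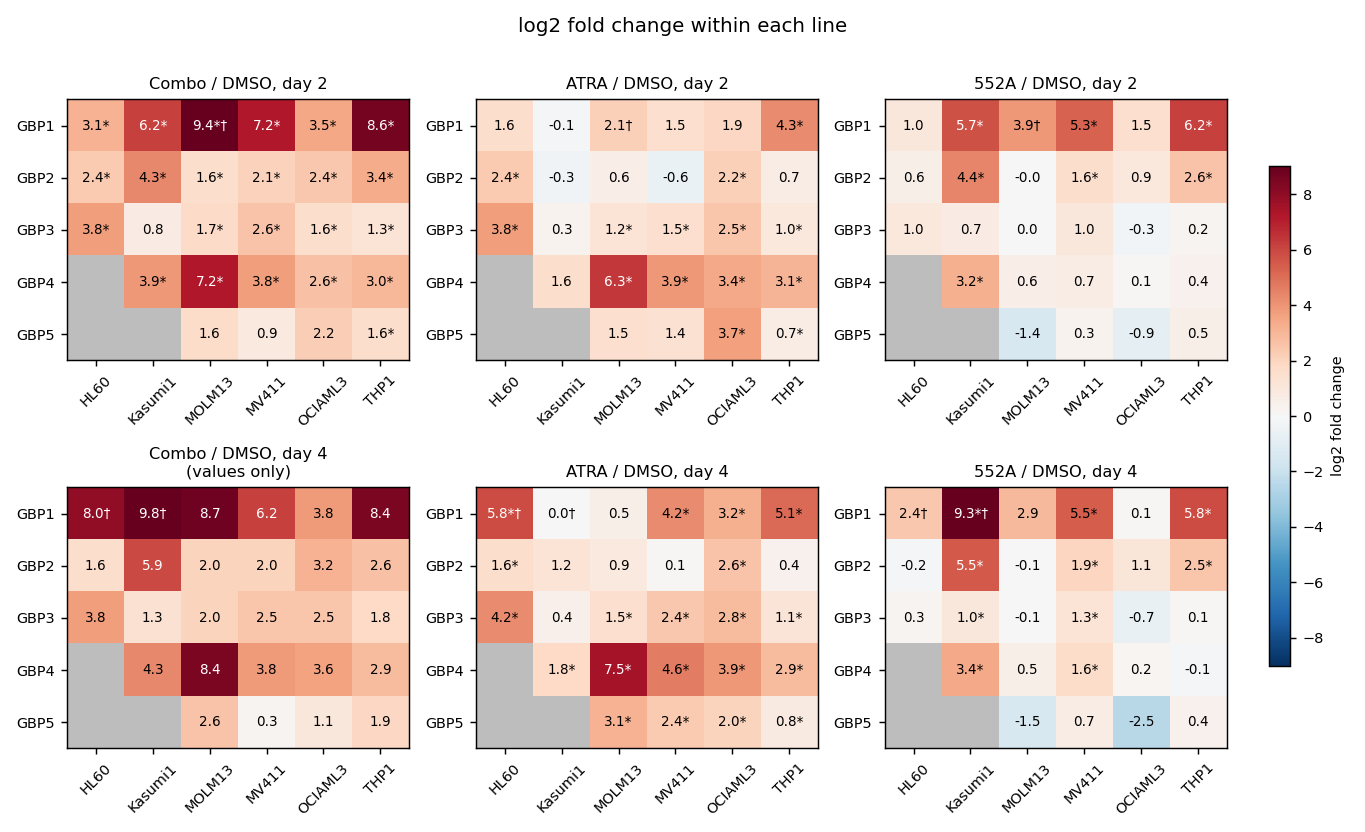
Log2 fold change of each member (rows) within each line (columns) against DMSO, for Combo, ATRA and 552A at day 2 (top) and day 4 (bottom). An asterisk marks an adjusted p under 0.05, grey a member that did not pass the filter, and a dagger a value where 1 of the groups held 0 reads, whose size depends on the fit. The Combo asterisks of GBP1 in MOLM13 and HL60 carry no weight, since GBP1 passed the filter there through Combo. Likewise the 552A and Combo asterisks of GBP1 in Kasumi1 carry none, since it passed there through 552A and Combo. GBP1 and GBP2 are called with 552A in Kasumi1, MV411 and THP1, and GBP3 with ATRA in every line but Kasumi1.

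GBP1, which binds bacterial lipopolysaccharide and starts the assembly, followed 552A in 3 lines, of which the Kasumi1 call carries no weight. In THP1 its level at day 2 was 93.2 and 128 CPM with Combo, 5.09 and 5.68 CPM with ATRA, 17.2 and 21.5 CPM with 552A, and 0.304 and 0.233 CPM with DMSO. The 4 treatments did not overlap. Against DMSO, 552A raised it by log2 6.16 ± 0.33 (edgeR adjusted p = 1.28e-06), ATRA by 4.25 ± 0.33 (adjusted p = 7.59e-06) and Combo by 8.58 ± 0.35 (adjusted p = 2.14e-08). Combo was also higher than 552A (2.42 ± 0.24, adjusted p = 2.83e-05) and than ATRA (4.33 ± 0.26, adjusted p = 8.45e-06) in THP1. Relative to the sum of both single responses on the log2 scale, Combo in THP1 was lower by -1.83 with an adjusted p = 0.0584, which is not a call; of the 27 pairs of line and member, 0 were called for this difference by edgeR, against 0.0784% of gene and line pairs called higher and 0.188% lower, and 1 was by the DESeq2 Wald test. At day 4 the THP1 values were 114 and 144 CPM with Combo, 11.8 and 14.2 CPM with ATRA, 19.2 and 22.6 CPM with 552A, and 0.253 and 0.470 CPM with DMSO.

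Kasumi1 and MV411 also raised GBP1 with 552A, at lower levels. The Kasumi1 levels are given as values only, because GBP1 passed the filter there through 552A and Combo. Kasumi1 at day 4 had 5.25 and 5.02 CPM with Combo, 3.06 and 4.46 CPM with 552A and 0 reads in both ATRA and both DMSO libraries. Here ATRA alone left GBP1 undetected, and Combo and 552A did not overlap with it. The day 4 reads with 552A amount to at least 56.7-fold more than DMSO, taking 3 reads over the DMSO group as the limit that a count of 0 allows. MV411 at day 2 had 5.21 and 3.64 CPM with Combo, 0.117 and 0.0391 CPM with ATRA, 1.31 and 0.948 CPM with 552A, and 0.0508 and 0 CPM with DMSO. The 552A call in MV411 at day 2 (adjusted p = 0.00493) ended without DMSO replicate 2 (log2 4.30, adjusted p = 0.0939), and at day 4 it was kept in every such fit (5.46 ± 0.69, adjusted p = 0.000607).

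MOLM13 differed from these lines: neither agent alone gave more than a few GBP1 reads, and both together did. At day 2 the 2 Combo libraries held 82 and 100 reads (4.20 and 3.90 CPM), the ATRA libraries 0 and 1, the 552A libraries 2 and 2, and the DMSO libraries 0 and 0. At day 4 the MOLM13 libraries held 229 and 262 GBP1 reads with Combo, 1 and 1 with ATRA, 4 and 8 with 552A, and 1 and 0 with DMSO. Combo in MOLM13 at day 2 was 48.6-fold higher than 552A by the ratio of group sums (95% counting interval 18.7 to 180.4) and 203-fold higher than ATRA (36.0 to 8068). These are given as values only, because GBP1 passed the filter in MOLM13 through the Combo libraries themselves. The fit did call this pair for Combo at day 2 against DMSO, 552A and ATRA, but those calls carry no weight here. They are counted below among the 27 pairs and not among the 20. Since the single-agent groups held 4 reads or fewer at day 2, Combo beyond the sum of the single responses could not be resolved for GBP1 in MOLM13 and was not called. ATRA alone was called for GBP1 in THP1 at day 2 and in HL60, MV411, OCIAML3 and THP1 at day 4. In OCIAML3 at day 4 the libraries held 4.13 and 2.04 CPM with Combo, 1.84 and 2.03 CPM with ATRA, 0.310 and 0.164 CPM with 552A, and 0.196 and 0.221 CPM with DMSO, so that ATRA did not overlap DMSO (3.17 ± 0.53, adjusted p = 0.0022). In HL60 at day 4 the ATRA libraries held 5 and 9 reads and the DMSO libraries 0, and that call (adjusted p = 0.0319) ended without ATRA replicate 2 or either DMSO replicate (adjusted p up to 0.140). At day 2 HL60 and OCIAML3 stayed low with both agents together: their Combo libraries had 1.13 and 0.406 CPM in HL60 and 1.79 and 1.11 CPM in OCIAML3.

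GBP2, a prenylated member that joins the GBP1 coat, was called with 552A in the same 3 lines, Kasumi1, MV411 and THP1, at both days. In Kasumi1 at day 2 its level was 9.74 and 9.16 CPM with Combo, 0.394 and 0.365 CPM with ATRA, 12.02 and 8.42 CPM with 552A, and 0.619 and 0.327 CPM with DMSO. Combo and 552A overlapped each other and stood clear of ATRA and DMSO. The 552A change of GBP2 in Kasumi1 was 4.37 ± 0.32 (adjusted p = 1.46e-05) at day 2 and 5.53 ± 0.33 (adjusted p = 1.73e-06) at day 4. In THP1 it was 2.60 ± 0.29 (adjusted p = 0.000185) and 2.48 ± 0.28 (adjusted p = 0.000196), and in MV411 1.60 ± 0.34 (adjusted p = 0.0283) and 1.93 ± 0.34 (adjusted p = 0.00488). The MV411 call at day 2 ended without either 552A library or without DMSO replicate 2 (adjusted p up to 0.230). ATRA called GBP2 in HL60 and OCIAML3 and in no other line, at both days; in HL60 at day 2 GBP2 was at 3.68 and 4.15 CPM with Combo, 3.87 and 3.84 CPM with ATRA, 0.787 and 1.37 CPM with 552A, and 0.319 and 1.18 CPM with DMSO. A missing call does not show a missing response: both THP1 libraries with ATRA at day 2 lay above those with DMSO (1.60-fold by the ratio of group sums, 95% counting interval 1.38 to 1.86), and so did both OCIAML3 libraries with 552A (1.91-fold, 1.24 to 2.96). These intervals cover counting error only and are too narrow for the spread between replicates. They do not show a response either. The OCIAML3 call at day 2 ended without ATRA replicate 1 or either DMSO replicate (adjusted p up to 0.123), and the HL60 call at day 4 without ATRA replicate 1 or either DMSO replicate (adjusted p up to 0.111).

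GBP3, which takes part in the caspase-activating coat, was called with ATRA in 5 of 6 lines at both days, Kasumi1 being the exception. HL60 changed most: at day 2 it had 31.4 and 24.8 CPM with Combo, 27.6 and 27.9 CPM with ATRA, 3.63 and 4.18 CPM with 552A, and 1.28 and 2.75 CPM with DMSO. Combo and ATRA overlapped, and both stood above 552A and DMSO. The ATRA change in HL60 was 3.78 ± 0.38 (adjusted p = 2.24e-05) at day 2 and 4.25 ± 0.39 (adjusted p = 8.60e-06) at day 4. In OCIAML3 it was 2.48 ± 0.26 (adjusted p = 0.000142) at day 2. In Kasumi1 GBP3 had 13.8 and 11.7 CPM with ATRA and 10.4 and 10.0 CPM with DMSO at day 2, which was not called, and 19.1 and 20.5 CPM with 552A at day 4, against 8.74 and 10.6 CPM with DMSO, which was (1.00 ± 0.21, adjusted p = 0.0129). That 552A call ended without any 1 of the 4 libraries compared (adjusted p up to 0.179). MV411 also had a 552A call for GBP3 at day 4, with 15.2 and 12.2 CPM with 552A, against 4.79 and 6.25 CPM with DMSO (1.26 ± 0.26, adjusted p = 0.0155), and it ended without 552A replicate 1 or DMSO replicate 1 (adjusted p up to 0.0664). The smaller ATRA calls were also sensitive: THP1 at day 2 (0.98 ± 0.25, adjusted p = 0.0216) ended without any 1 of its ATRA and DMSO libraries (adjusted p up to 0.135), THP1 at day 4 without ATRA replicate 2 or DMSO replicate 1 (adjusted p up to 0.0944), MOLM13 at day 2 without DMSO replicate 1 (adjusted p = 0.0580), and MV411 at day 2 without ATRA replicate 1 or DMSO replicate 2 (adjusted p up to 0.0531).

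GBP4, another part of the coat, had the highest log2 fold change with ATRA among the 5 members across lines at both days. MOLM13 held 52.8 and 56.1 CPM with Combo, 32.0 and 27.4 CPM with ATRA, 0.395 and 0.679 CPM with 552A, and 0.238 and 0.492 CPM with DMSO at day 2. The ATRA change there was 6.33 ± 0.55 (adjusted p = 2.12e-05), and 7.46 ± 0.55 (adjusted p = 2.93e-06) at day 4. The highest levels were in OCIAML3, with 178 and 154 CPM with Combo, 280 and 284 CPM with ATRA, 25.6 and 33.5 CPM with 552A, and 26.5 and 27.2 CPM with DMSO at day 2. In OCIAML3 the Combo libraries were below the ATRA ones (-0.79 ± 0.15, adjusted p = 0.0226), a call that ended without any 1 of those 4 libraries and 5 others (adjusted p up to 0.259). THP1 and MV411 rose with ATRA as well (3.09 ± 0.18, adjusted p = 9.01e-07, and 3.90 ± 0.30, adjusted p = 6.47e-06, at day 2). In Kasumi1 GBP4 followed 552A, with 11.3 and 11.2 CPM with Combo, 2.58 and 1.82 CPM with ATRA, 8.38 and 5.88 CPM with 552A, and 0.904 and 0.561 CPM with DMSO at day 2. There 552A was called (3.22 ± 0.30, adjusted p = 7.82e-05) and ATRA was not, and at day 4 the ATRA call (1.82 ± 0.29, adjusted p = 0.0416) ended in 12 of the 16 fits that left out 1 library (adjusted p up to 0.825, without DMSO replicate 1). MV411 was called with 552A as well, at day 4, where its libraries held 33.5 and 25.6 CPM with 552A, against 8.66 and 9.85 CPM with DMSO (1.63 ± 0.28, adjusted p = 0.00476), and that call was kept whichever library was left out. In HL60 GBP4 gave 0 to 3 reads in every library, so no response could be measured.

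GBP5, a prenylated member linked to NLRP3 inflammasome assembly, was measurable in 4 lines. In THP1 its level was 33.5 and 38.6 CPM with Combo, 18.0 and 20.8 CPM with ATRA, 16.6 and 16.6 CPM with 552A, and 12 and 11.4 CPM with DMSO at day 2. The treatments did not overlap in THP1, and Combo was called against DMSO (1.57 ± 0.17, adjusted p = 3.19e-05), 552A (1.03 ± 0.17, adjusted p = 0.000965) and ATRA (0.87 ± 0.17, adjusted p = 0.00597). The last of these ended without ATRA replicate 1 or Combo replicate 2 (adjusted p up to 0.0957), and the ATRA call against DMSO in THP1 (0.70 ± 0.17, adjusted p = 0.0170) without ATRA replicate 2 or either DMSO replicate (adjusted p up to 0.115) and with no filter on low counts (adjusted p = 0.0582). At day 4 ATRA raised GBP5 in MOLM13 to 26.7 and 29.1 CPM, against 1.47 and 4.99 CPM with DMSO (3.10 ± 0.49, adjusted p = 0.00138). MOLM13 with 552A had 0.710 and 1.67 CPM at day 4, overlapping the DMSO values. In MV411 at day 4 the values were 1.96 and 2.32 CPM with Combo, 8.19 and 10.1 CPM with ATRA, 3.22 and 2.54 CPM with 552A, and 1.02 and 2.50 CPM with DMSO. There Combo lay below both single agents, and the GBP4 values did likewise relative to ATRA, with 127 and 141 CPM with Combo and 242 and 220 CPM with ATRA.

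Counted over lines, 552A was called higher in 7 of the 27 measurable pairs of line and member at day 2 and in 10 at day 4, against 2.26% and 2.7% of all gene and line pairs. ATRA was called higher in 14 pairs at day 2 and 20 at day 4, against 6.45% and 8.52%, and Combo at day 2 in 23, against 10.6%. Over the 20 pairs left without the 7 that passed through treated libraries, the counts were 4 and 7 for 552A, 12 and 15 for ATRA and 17 for Combo. The Combo counts over 27 pairs include GBP1 in MOLM13 and HL60, where the filter was passed through the Combo libraries. Both the 552A and the Combo counts over 27 pairs include GBP1 in Kasumi1, which passed through those libraries. None of the 27 pairs was called lower against DMSO in these 5 comparisons. Combo at day 2 was called higher than 552A in 17 pairs (6.61% of all) and higher than ATRA in 10 (3.25%), with OCIAML3 GBP4 the 1 pair lower (1.9% of all); over the 20 pairs the higher calls numbered 12 against 552A and 6 against ATRA. Of the 7 and 10 calls with 552A, 5 and 8 were kept whichever library of the line was left out, and of the 14 and 20 calls with ATRA, 9 and 14. All members are measured in the same libraries, so these pairs are not independent of each other.

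The member that made up most of the family differed by line and treatment. Levels were divided by the merged length of all annotated exons of a gene, from 4297 bases for GBP3 to 8143 for GBP5. The shares depend on these lengths, which are not those of the transcripts present. On that scale, GBP3 was the most abundant member with DMSO at day 2 in HL60, Kasumi1, MOLM13 and THP1, with 76.8%, 92.2%, 49.8% and 48.5% of the summed CPM per kb of the 5 genes. GBP4 was in OCIAML3 and, by a small margin, in MV411 (38.3%, GBP2 33.2%). With DMSO at day 4 GBP2 led instead in HL60 (75.0%, GBP3 24.7%) and in MV411 (35.7%). With ATRA at day 2, GBP4 was the most abundant in MOLM13 (38.7%), MV411 (84.8%), OCIAML3 (79.0%) and THP1 (51.4%). In THP1 Combo made GBP1 the most abundant (36.7% at day 2 and 35.8% at day 4), whereas 552A made GBP2 so (33.5% and 40.2%). The summed level in THP1 at day 2 was 60.3 CPM per kb with Combo, 26.7 with ATRA, 18.6 with 552A and 8.03 with DMSO. Kasumi1 kept GBP3 as the leading member throughout, but its share was 51.4% with Combo and 56.4% with 552A, against 92.2% with DMSO, at day 2.

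**Figure D4:**
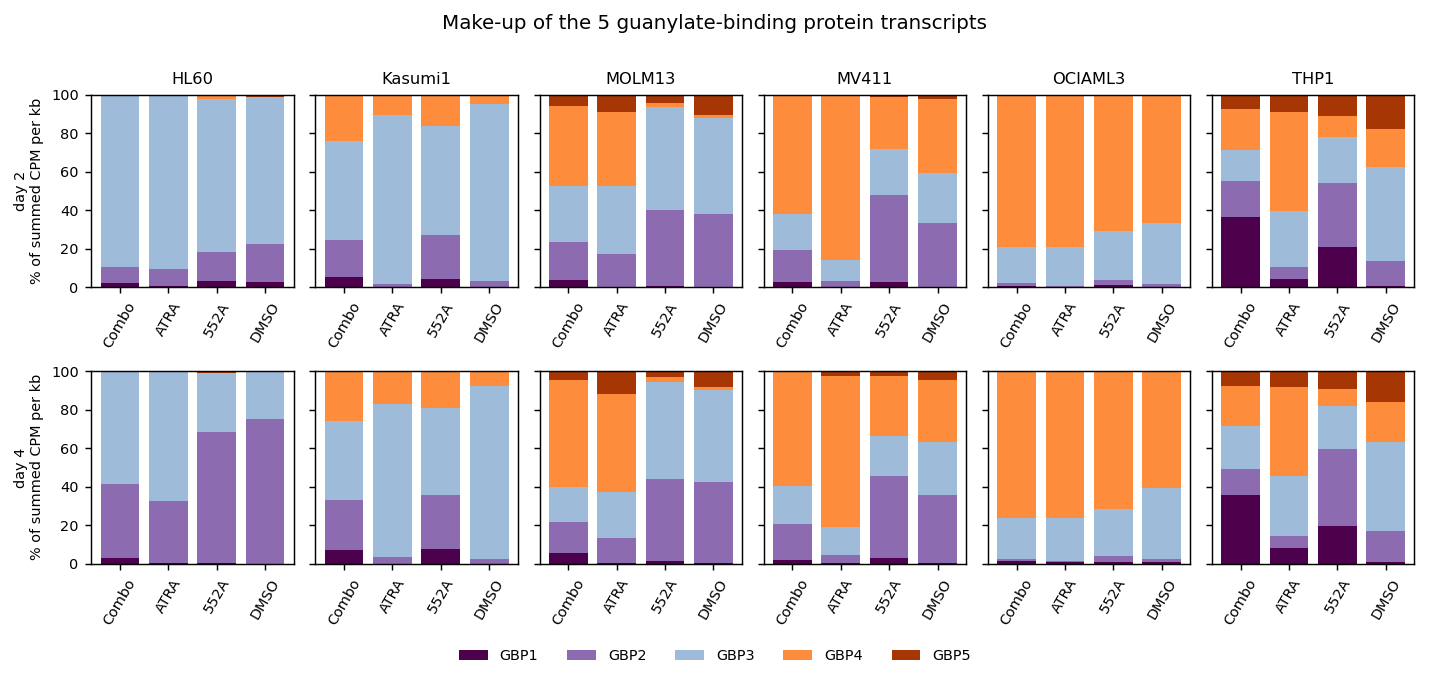
Share of each member in the summed CPM per kb of the 5 genes, for each line (columns) and treatment (bars), at day 2 (top) and day 4 (bottom). GBP1 takes 36.7% of the THP1 bar with Combo at day 2, and GBP4 most of the OCIAML3 bars.

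Genes beside the members were tested in the same fits. GBP7, a relative whose locus overlaps that of GBP2, rose with ATRA (2.92 ± 0.69, adjusted p = 0.0224 at day 2, and 3.90 ± 0.56, adjusted p = 0.0037 at day 4) and stood at 0.02 with 552A at day 2. With ATRA at day 2 its means were 2.27 CPM in OCIAML3, 0.692 in THP1 and 0.606 in MV411. The ATRA groups of Kasumi1, MOLM13 and HL60 held 0, 1 and 2 GBP7 reads then, so the rise rests on the former lines. Its day 2 call ended without MV411, OCIAML3 or THP1 (adjusted p up to 0.193) and by DESeq2 (2.02, adjusted p = 0.0648). Of the 13 neighbours within 500 kb that were tested, 2 were called higher with ATRA at day 2 (against 4.97% of all genes), GBP7 and PKN2 (0.49 ± 0.14, adjusted p = 0.0376; 0.107 after correction for GC content and length, and up to 0.146 without HL60, MV411, OCIAML3 or THP1), and 0 by edgeR with 552A (against 1.57%; 1 by the DESeq2 Wald test), where the largest value was that of LRRC8C (1.32 ± 0.41, adjusted p = 0.0911, unadjusted p under 0.05). The median of the 13 was 0.19 with ATRA and 0.17 with 552A, and the medians of all genes were 0.03 and 0.04. Combo called 5 of the 13 higher at day 2, against 15.2% of all genes, with a median of 0.505, and the count was 1 without MV411, 2 without OCIAML3 and 3 without THP1.

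**Figure D5:**
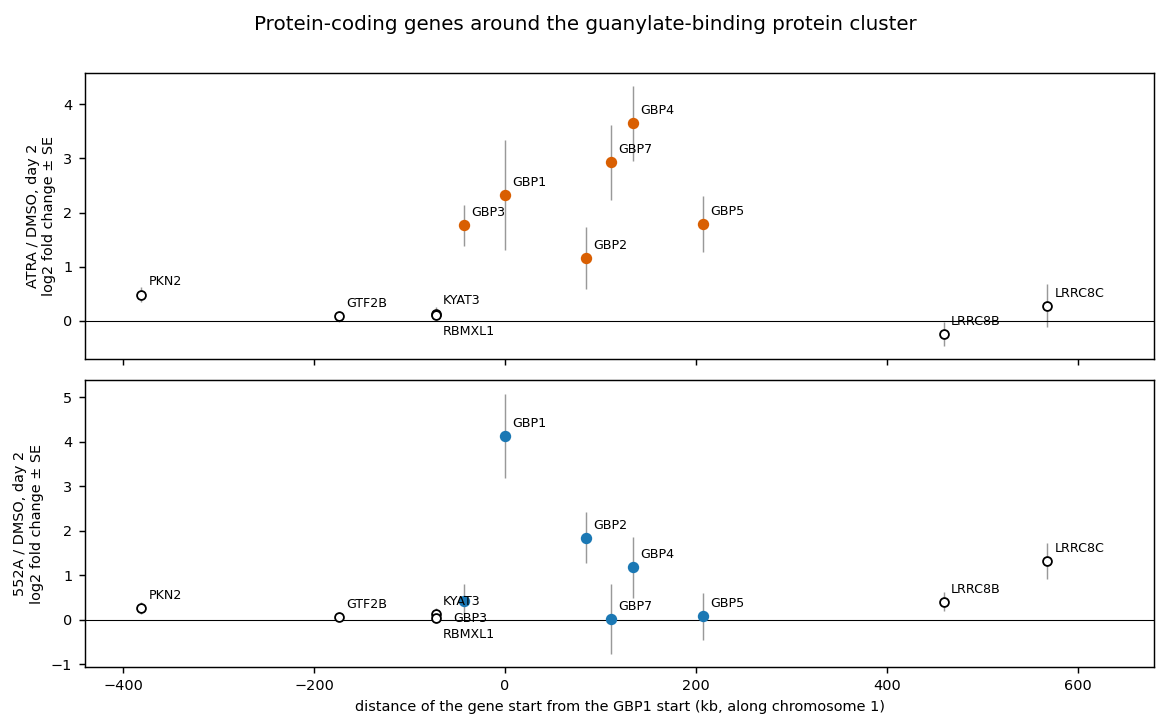
Log2 fold change with ATRA (top) and 552A (bottom) against DMSO at day 2 over the 6 lines, with bars of 1 SE, for protein-coding genes by the distance of their start from that of GBP1 in kb. Filled points are guanylate-binding protein genes and open points other genes; the filled points reach 3.64 with ATRA (GBP4) and 4.14 with 552A (GBP1).

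More interferon pathway genes were called higher with ATRA than with 552A, as was so over all genes (ATRA 4.97% at day 2 and 4.17% at day 4, 552A 1.57% and 0.38%). Of 18 genes of interferon signalling, ATRA called 6 higher and 0 lower at day 2 and 8 higher and 0 lower at day 4, with medians of 0.49 and 0.70. They included IRF1, the transcription factor that drives many interferon gamma targets (1.61 ± 0.24, adjusted p = 0.00124 at day 2), and IFNAR2, a chain of the type I interferon receptor (1.09 ± 0.23, adjusted p = 0.0135). With 552A, edgeR called 0 of the 18 at either day (medians 0.14 and 0.14), and the DESeq2 Wald test called 2 at day 2; IFNAR1 had the lowest adjusted p by edgeR (0.62 ± 0.17, adjusted p = 0.0638, unadjusted p under 0.05). Of the 17 interferon gamma targets tested, ATRA called 5 higher at day 2 and 7 at day 4 and none lower, led by SERPING1, a complement inhibitor (4.24 ± 0.70, adjusted p = 0.00473 at day 2), whereas 552A called 0 at either day. Of 20 type I interferon genes, ATRA called 7 higher at day 2 and 3 at day 4 (11 and 8 by the DESeq2 Wald test), and 552A called 1 at day 2, HERC5 (1.24 ± 0.31, adjusted p = 0.0437; 0.0552 after correction for GC content and length), and 0 at day 4. Interferon ligands were hardly detected: of 8, only IFNK passed the filter, and it rose at day 2 with 552A (2.24 ± 0.38, adjusted p = 0.00462), ATRA (2.66 ± 0.37, adjusted p = 0.0007) and Combo (3.71 ± 0.36, adjusted p = 9.09e-06). At day 4 edgeR did not call IFNK with 552A (0.64 ± 0.57, adjusted p = 0.919) or ATRA (1.57 ± 0.55, adjusted p = 0.0869). The day 2 calls of IFNK, IRF1 and SERPING1 were kept without each line, while the ATRA counts depended on single lines: without THP1 signalling genes gave 1 call at day 2 and 2 at day 4, without OCIAML3 the interferon gamma targets gave 2 at day 2, and type I genes gave 0 at day 2 without MV411 and 0 at day 4 without HL60. The ATRA call of IFNAR2 at day 2 also ended without THP1 (adjusted p = 0.0849), and the 552A call of HERC5 without any line but MOLM13 (adjusted p up to 0.227). The difference between agents in these lists was not tested.

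Genes that act with the family in defence gave 1 call with 552A at day 2, AIM2, a sensor of DNA in the cytosol (3.29 ± 0.55, adjusted p = 0.00411), out of 9 tested, against 1.57% of all genes. ATRA called 3 of the 9 at day 2 (against 4.97%), CASP4 (0.56 ± 0.15, adjusted p = 0.0295; 0.101 after correction for GC content and length), AIM2 (1.97 ± 0.55, adjusted p = 0.0351; 0.0589 after it) and the kinase PIM1 (1.33 ± 0.41, adjusted p = 0.0451), and Combo called 5 (against 15.2%), led by AIM2 (5.29 ± 0.55, adjusted p = 1.54e-05) and APOL3 (2.95 ± 0.55, adjusted p = 0.00134). The 552A call of AIM2 ended without MOLM13 (3.19, adjusted p = 0.0547), and the 3 ATRA calls each ended without HL60, MOLM13, OCIAML3 or THP1 (adjusted p up to 0.118); those of AIM2 and APOL3 with Combo were kept without each line. None of the 9 was called lower in these 3 comparisons. Of 6 genes of prenylation and of the steps that follow it, Combo called PGGT1B higher (0.70 ± 0.15, adjusted p = 0.00338) and ICMT, FNTB and RCE1 lower (-0.47 to -0.54, adjusted p = 0.0117, 0.0158 and 0.0185) at day 2. Over all 24130 genes tested, Combo called 3659 higher and 2905 lower. PGGT1B and FNTB are subunits of the enzymes that attach the lipid, while the protease RCE1 and the methyltransferase ICMT trim and cap the protein afterwards. RCE1 stood at -0.06 (adjusted p = 0.745) after correction for GC content and length, and its call also ended without OCIAML3 (adjusted p = 0.0774). Of 7 myeloid markers at day 2, 552A called 1 higher, LYZ, a lysozyme (2.97 ± 0.64, adjusted p = 0.0232), and 0 lower, with a median of -0.168. ATRA called 1 higher, the receptor FLT3 (1.01 ± 0.25, adjusted p = 0.0251), and 1 lower, MPO, a granule enzyme (-1.46 ± 0.37, adjusted p = 0.0249; 0.0602 after correction for GC content and length), with a median of -0.491. Of all 24130 genes tested at day 2, 552A called 380 higher and 92 lower, and ATRA 1199 higher and 1062 lower. The FLT3 call ended without HL60, OCIAML3 or THP1 (adjusted p up to 0.115). The MPO call ended without MOLM13, MV411, OCIAML3 or THP1 (adjusted p up to 0.116). The 552A call of LYZ ended without Kasumi1, MOLM13, OCIAML3 or THP1 (adjusted p up to 0.117). The part of these marker changes in the family's response was not tested.

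As a description, members were compared over the 48 means of line, treatment and day, as log2(CPM + 0.5) centred within each line and day. The points share lines, libraries and depth. They include the means of Combo at day 4, which picked the genes, so the correlations are not independent of that choice. GBP1 correlated most with GBP2 (r = 0.819, n = 48 means) and GBP4 with GBP5 (r = 0.842), while GBP2 and GBP5 were at 0.321. Among 11749 protein-coding genes, the patterns most like GBP1 were those of SAT2 (r = 0.880), SCPEP1 (0.871), TBC1D9 (0.866), SNX7 (0.864) and SGSH (0.856). For GBP2 they were FGD6 (0.909), FNBP1L (0.892) and LPAR6 (0.878). For GBP3 they were STAM2 (0.953), APOL1 (0.953) and SAMD9 (0.946), for GBP4 MAN1A1 (0.965), THBD (0.919) and CDYL2 (0.918), and for GBP5 THBD (0.896), CARD16 (0.854) and LGALS3BP (0.811). Of the interferon signalling genes, the closest to GBP1 was IFNGR2 (0.709), to GBP3 JAK1 (0.915) and to GBP4 and GBP5 IRF1 (0.875 and 0.730).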

How the data were processed

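RNA was extracted and sequenced paired-end after a stranded total RNA preparation, per the labels' protocols. The authors deposited raw read counts per Ensembl gene for 96 libraries, and the submitters' processing notes name Trimmomatic 0.36, STAR 2.4.2a, HTSeq 0.6.0 and GRCh38 (which annotation and strand option HTSeq used is not given in the sources used here). Of 60552 rows, 56994 matched GENCODE 29, which gave symbols and positions. The label 552A was read as GSK2879552.

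Counts were tested with edgeR 4.0.16 (quasi-likelihood test, TMM, filterByExpr, R 4.3.3) with Benjamini-Hochberg adjustment over all genes tested and a threshold of 0.05. Across lines, the 2 replicates of each group were summed and the line was a block. Within lines, the 16 libraries of a line were fitted as 8 groups. Differences between lines were F tests over the 48 libraries of a day. When a library was left out of these F tests, the filter, scaling and dispersion trend of the full fit were kept. CPM refer to the TMM-scaled total, and depth limits GBP1 most. A fold against a group with 0 reads is a lower bound from 3 reads over that group; intervals are exact at 95% and cover counting error only. Genes named outside the family were the 4 of smallest p per list and comparison, or those of highest correlation. The members and lists were chosen with earlier results of these data known. The code was tested on simulated data. Alternatives were DESeq2 1.42.0 (size factors, Wald test), no filter, a correction for GC content and length, leaving out 5 libraries listed for their GC trend from earlier work on these data, a replicate block, and leaving out each library or line. GC slopes ran from -0.875 to 0.355 per library; the list held the 4 steepest and MOLM13 552A day 4 replicate 1 (-0.446), but not MV411 DMSO day 4 replicate 2 (-0.524) or OCIAML3 Combo day 4 replicate 2 (-0.487).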

Additional observations from a re-analysis of the deposited data

Results flagged for a closer look

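The responses below differed between the 6 lines in the edgeR F test over the line-by-treatment terms, given by adjusted p. For 552A at day 2 they were GBP1 (0.0184), GBP2 (0.000794) and GBP4 (0.000484), and at day 4 GBP1 (0.000132), GBP2 (2.27e-07), GBP3 (0.00253) and GBP4 (4.35e-05). For ATRA at day 2 they were GBP2 (0.00364), GBP3 (2.12e-06) and GBP4 (4.34e-06), and at day 4 GBP2 (0.00563), GBP3 (1.78e-08), GBP4 (4.55e-08) and GBP5 (0.0243). For Combo at day 2 they were GBP1 (0.000401), GBP2 (0.0168), GBP3 (9.76e-06) and GBP4 (2.75e-07). The GBP5 call for ATRA at day 4 ended without MOLM13 DMSO replicate 1, either THP1 ATRA replicate or THP1 DMSO replicate 1 (adjusted p up to 0.0655). Groups held 2 libraries, too few to look for a library that stands apart within its group.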

How the results depend on the processing

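Over the lines, the number of the 5 members called with 552A was 2 at day 2 and 1 at day 4 by the DESeq2 Wald test, and 0 at day 2 without the 5 libraries listed for their GC trend (at day 2, OCIAML3 552A replicate 2 and THP1 552A replicate 2), where GBP1 stood at 4.01 (adjusted p = 0.0633), against 1 and 0 in the fits reported. Leaving out each line gave 0 to 1 for 552A at day 2, 0 to 0 for 552A at day 4, 1 to 3 for ATRA at day 2, 1 to 3 for ATRA at day 4, 4 to 5 for Combo, 0 to 3 for Combo against 552A and 0 to 1 for Combo against ATRA. Within lines, the pairs called for Combo beyond the sum numbered 0, against 1 with no filter, 1 by the DESeq2 Wald test and 3 after correction for GC content and length. Leaving out each library gave 0 to 2 there, 5 to 9 for 552A at day 2, 9 to 10 at day 4, 12 to 15 for ATRA at day 2, 18 to 20 at day 4, 22 to 24 for Combo, 15 to 18 for Combo against 552A and 10 to 12 for Combo against ATRA. The F tests between lines gave 2 to 3 members for 552A at day 2, 4 to 5 at day 4, 3 to 4 for ATRA at both days and for Combo, and 4 to 4 for DMSO levels. Those fits kept the filter, scaling and dispersion trend estimated with the left-out library, so their ranges may be too narrow. The alternatives of these F tests were chosen after seeing the data. The direction turned for values that were no calls: GBP5 with 552A at day 2 was -0.12 after correction for GC content and length and -0.20 to 0.45 without a line, and at day 4 -0.13 to 0.41. GBP1 beyond the sum was 0.45 by DESeq2 and -0.65 to 0.67 without a line, and GBP5 beyond it -0.88 to 0.0033. Combo against ATRA without a line was -0.035 to 0.43 for GBP3, -0.075 to 0.46 for GBP4 and -0.53 to 0.15 for GBP5. The cause was not tested.

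Whether replicate numbers pair the samples was not settled. The correlations of same-numbered deviations ran from -0.803 to 0.903 and were not all over 0.1 in any line, but their line medians were positive, from 0.0649 in MOLM13 to 0.405 in THP1. The fits reported used no replicate block. With a replicate block the calls of OCIAML3 for Combo against 552A ended for GBP1 (1.97, adjusted p = 0.0524) and GBP5 (3.09, adjusted p = 0.0594), and 1 pair was called for Combo beyond the sum.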
